A study of Mus musculus with 6 samples.

Results

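Chromatin accessibility was examined at 10 genes of the neuromuscular junction: Agrn, Lrp4, Musk, Dok7 and Rapsn, which encode the signal, the receptor and the adaptors that gather acetylcholine receptors, and Chrna1, Chrnb1, Chrnd, Chrne and Chrng, which encode the subunits of the muscle receptor. Taken as belonging to a gene was every interval of the deposited count table that overlaps the gene body or lies within 10 kb of one of its transcription start sites (TSSs), by the GENCODE vM1 annotation of the mm9 genome. This gave 29 of the 39768 intervals, and each of the 10 genes had at least 1. The counts come from ATAC-seq, in which the Tn5 transposase cuts DNA that nucleosomes leave exposed, on 50000 nuclei per library from tibialis anterior muscle of mice 7 weeks old, whose strain is C57BL/6 in the labels and whose lines were backcrossed to C57BL/6N in the methods. All 6 libraries carry the floxed alleles H2A.Z-1 flox/flox and H2A.Z-2 flox/flox, which encode the histone variant H2A.Z. The 3 CTL libraries lack the Cre transgene (HSA CRE −, called WT in the labels), and the 3 libraries labelled H2A.Z dKO, from here on called labelled dKO, carry it (HSA CRE +), so that Cre is made from the skeletal actin promoter in muscle fibres and other cells of the muscle keep both genes. The labels do not say whether a library holds 1 animal or several, and the methods describe hind limb muscles where the labels name the tibialis anterior.

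At the junction, agrin released by the motor nerve binds Lrp4 on the muscle fibre, Lrp4 activates the kinase MuSK, and MuSK, with its adaptor Dok7, leads rapsyn to anchor acetylcholine receptors under the nerve ending. The receptor is a ring of subunits around an ion channel, in which the gamma subunit of the fetal form is replaced by the epsilon subunit after birth. In innervated muscle, the genes of the receptor and of MuSK are transcribed mainly in the few nuclei beneath the synapse and are kept low in the other nuclei of the fibre, and denervation raises most of them along the whole fibre. Their promoters are known for E-boxes (CANNTG), bound by the myogenic factors of the MyoD family, and for the N-box (CCGGAA), bound by Ets factors such as GABP.

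The sequences of 4 intervals are shown because the results turn on them: the junction interval with the highest level, which lies in Chrnb1, the only interval of Musk, and both intronic intervals of Chrna1, which are hardly wider than a binding site. They are given on the strand of the gene, from mm9, with E-boxes and N-boxes in capitals, and none of these stretches holds either.
Chrnb1 Peak_24909, middle 200 bases, chr11:69608863-69609062, minus strand: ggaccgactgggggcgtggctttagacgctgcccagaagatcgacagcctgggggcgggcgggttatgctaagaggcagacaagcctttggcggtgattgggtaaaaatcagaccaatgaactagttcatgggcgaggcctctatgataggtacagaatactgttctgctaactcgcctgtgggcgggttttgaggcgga
Musk Peak_7965, chr4:58349260-58349423, plus strand: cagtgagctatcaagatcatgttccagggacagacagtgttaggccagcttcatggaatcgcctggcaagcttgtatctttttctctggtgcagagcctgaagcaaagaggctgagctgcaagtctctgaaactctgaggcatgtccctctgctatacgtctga
Chrna1 Peak_3600, chr2:73405238-73405258, minus strand: aagagtctgaagtataatgca
Chrna1 Peak_3601, chr2:73410644-73410663, minus strand: agcacacagctagagctggg

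The 120 bases that precede the annotated 5′ end are shown next for 7 genes. Rapsn and Chrnb1 have an interval within 1 kb of this end, whereas Musk, Chrna1, Chrnd, Chrne and Chrng have none. Capitals mark E-boxes (CANNTG, which includes CAGCTG) and the N-box, written CCGGAA or, on the other strand, TTCCGG.
Rapsn, chr2:90875657-90875776, plus strand: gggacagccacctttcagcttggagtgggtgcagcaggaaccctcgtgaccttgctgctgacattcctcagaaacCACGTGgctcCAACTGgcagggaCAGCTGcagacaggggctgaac
Chrnb1, chr11:69609446-69609565, minus strand: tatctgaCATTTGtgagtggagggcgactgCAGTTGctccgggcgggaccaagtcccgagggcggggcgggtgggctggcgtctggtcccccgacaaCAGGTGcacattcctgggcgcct
Musk, chr4:58298714-58298833, plus strand: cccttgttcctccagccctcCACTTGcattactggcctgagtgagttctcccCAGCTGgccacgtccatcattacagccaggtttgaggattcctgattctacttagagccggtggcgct
Chrna1, chr2:73418396-73418515, minus strand: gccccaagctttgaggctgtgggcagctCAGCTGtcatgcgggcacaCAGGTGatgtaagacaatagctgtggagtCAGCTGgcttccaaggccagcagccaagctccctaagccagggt
Chrnd, chr1:89087107-89087226, plus strand: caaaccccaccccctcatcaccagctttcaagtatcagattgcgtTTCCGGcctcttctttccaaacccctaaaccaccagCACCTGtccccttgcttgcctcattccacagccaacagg
Chrne, chr11:70432719-70432838, minus strand: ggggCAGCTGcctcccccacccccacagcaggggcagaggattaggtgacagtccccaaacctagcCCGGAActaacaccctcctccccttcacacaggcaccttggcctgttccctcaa
Chrng, chr1:89102266-89102385, plus strand: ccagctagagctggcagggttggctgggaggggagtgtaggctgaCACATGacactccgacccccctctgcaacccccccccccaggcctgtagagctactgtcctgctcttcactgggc

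The genes of the signalling and anchoring proteins had a called interval at the 5′ end in 4 of 5 cases, and those of the receptor subunits in 1 of 5. Agrn, Lrp4, Dok7, Rapsn and Chrnb1 had an interval with its midpoint within 1 kb of the 5′ end, 5 of the 10 genes, where 10311 of 22367 protein-coding genes (46.1%) have one. For the others the nearest midpoint was at 4.39 kb from the 5′ end in Chrna1, 5.64 kb in Chrnd, 2.98 kb in Chrne and 8.07 kb in Chrng, and at 50.5 kb in Musk. By the rule that assigned intervals to the junction genes, 60.3% of protein-coding genes have at least 1 interval. A gene with no interval at its promoter may still have fragment ends there, since only called intervals were counted.

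Of the 29 intervals, 13 lie within 1 kb of a TSS of the junction gene itself, 5 only within 1 kb of a TSS of another gene and 11 of neither, and 18 overlap the body of the junction gene. The 5 at other genes are Agrn Peak_9860, at AW011738, Chrna1 Peak_3602 and Peak_3603, at Gm13705, and Chrng Peak_965 and Peak_966, at the promoter of Eif4e2, a neighbour that encodes a cap-binding protein. Chrng therefore has no interval that is not at the start of its neighbour. Chrne Peak_24983 lies at an internal Chrne start and also within 1 kb of a TSS of 4930544D05Rik. In 3 pairs of intervals (Agrn Peak_9857 and Peak_9858, Dok7 Peak_10281 and Peak_10282, Rapsn Peak_3775 and Peak_3776) the ranges overlap, which counts the ends in the overlap for each of the pair. Of the 29, 7 are narrower than 73 bp, the length that a fragment end was given when peaks were called.

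**Figure D1:**
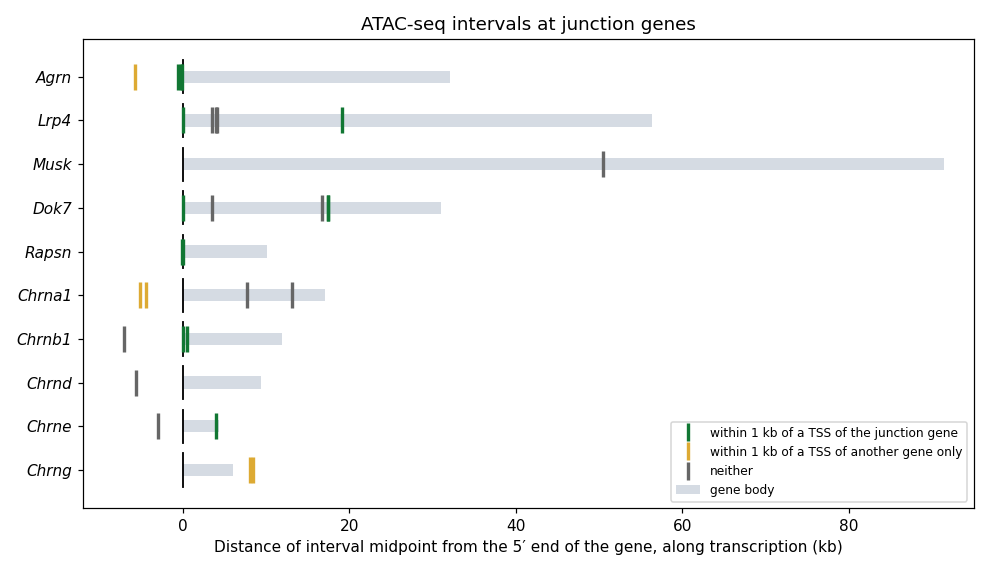
Position of the 29 intervals (vertical ticks) at the 10 junction genes, as the distance in kb of the interval midpoint from the annotated 5′ end of the gene along the direction of transcription, with the gene body as a grey bar. Ticks stand at the 5′ end (0 kb) in Agrn, Lrp4, Dok7, Rapsn and Chrnb1, while the single interval of Musk stands 50.5 kb inside the gene and those of Chrng lie past its end.

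The level of an interval was expressed as RPKM, here the CPM of a library (counts over its total, times 1000000) divided by the width of the interval in kb, and as the percentile of its mean among all 39768 intervals. Over the junction genes the median of the 29 means was 114 RPKM, against 116 over all intervals, and the median percentile was 48.4. Chrnb1 Peak_24909 stood highest, at 268 ± 32.3 RPKM (SD, n = 6 libraries) and the 97.3rd percentile. Chrna1 Peak_3602 followed with 247 ± 45.3 RPKM (SD, n = 6), but it is 22 bp wide, lies at Gm13705, and its libraries (178 to 309.9 RPKM) overlap those of Peak_24909 (208 to 301). Chrng Peak_965, at Eif4e2, came next with 196 ± 15.8 RPKM (SD, n = 6). At the other end, Musk Peak_7965 had 47.9 ± 17.3 RPKM (SD, n = 6), the 0.312th percentile of all intervals and the 0.465th of those inside genes away from TSSs. Chrna1 Peak_3603 with 66.5 ± 16.8 RPKM and Lrp4 Peak_3807 with 68.8 ± 12.2 RPKM (SD, n = 6 each) were next lowest, and the libraries of these 3 intervals overlap. The other 23 intervals had means of 79.2 to 162 RPKM. This order depends on the division by width, and by counts Musk Peak_7965 was not lowest. The methods extend the fragment ends before counting, so the narrowest intervals may hold ends from beyond their edges, which would raise their RPKM. How far this moves the order was not tested. Musk Peak_7965 is 164 bp wide and held 17 to 62 counts per library. Chrnd Peak_964, 19 bp wide, held 8 to 13 and stood at the 46.9th percentile. Chrna1 Peak_3601, 20 bp wide, held 9 to 17 and stood at the 55.9th.

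**Figure D2:**
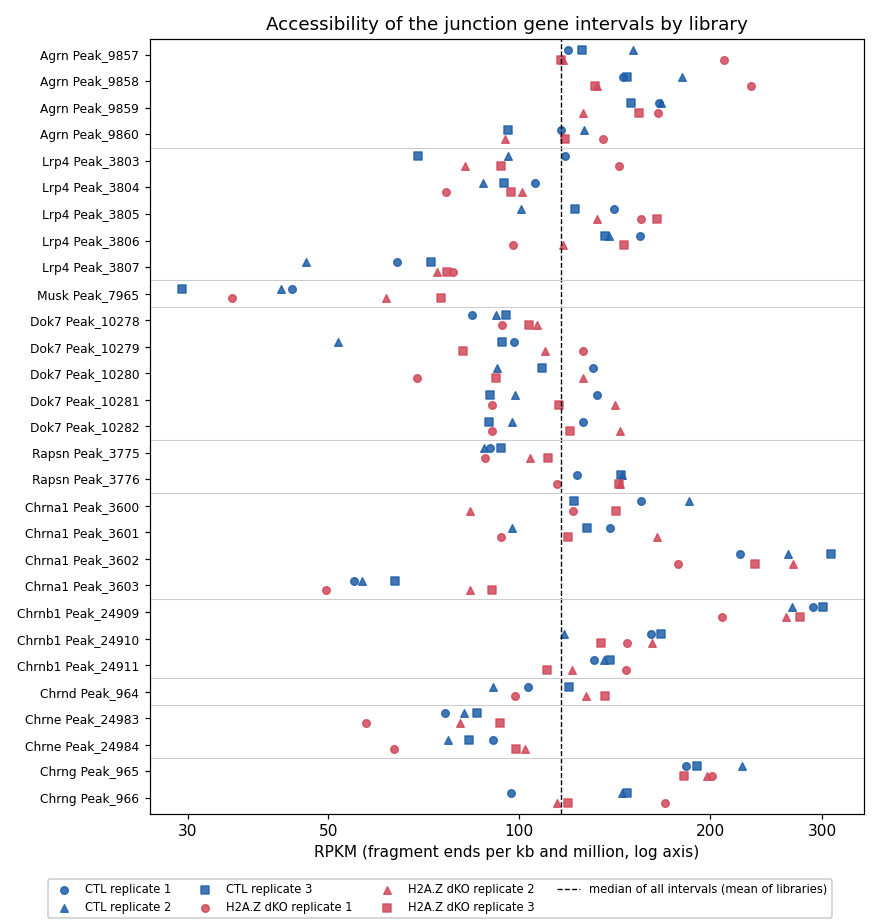
RPKM (log axis) of each junction gene interval in each of the 6 libraries, CTL in blue and libraries labelled dKO in red, with a different marker for each replicate number; the dashed line is the median of all intervals, 116 RPKM. Chrnb1 Peak_24909 stands near the right edge in all libraries, Musk Peak_7965 at the left edge, and blue and red markers overlap in nearly every row.

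Before the groups were compared, the libraries were examined. They held 3520008 to 6117245 counts in all intervals, of which the junction gene intervals took 0.0596% to 0.0615%. Both intervals between the loxP sites of H2afz, the gene of H2A.Z-1, summed to 79, 69 and 33 counts in CTL, against 57, 52 and 64 in the libraries labelled dKO, so the directions given here rest on the labels. Replicate 1 of the libraries labelled dKO stood apart, with 77.0% of its counts at promoters against 73.2% to 74.9% in the other 5. An interval within 1 kb of a TSS was present for 6 of 6 markers of muscle fibres, 3 of 4 of endothelium, 2 of 3 of fibroblasts, and none of 3 of macrophages or 2 of satellite cells. The endothelial promoters (Cdh5, Kdr and Tek) summed to 31.4 to 38.1 CPM in CTL, against 24.2 to 28.4 in the libraries labelled dKO, ranges that do not overlap. Of 13483 protein-coding genes, each summed over all intervals assigned by the rule above, 10.6% also separate the groups, 6.55% in this direction. That background is not of the same kind as the endothelial sum, which joins 3 genes, takes promoter intervals only and is scaled by library totals alone. The fibre (277 to 381 and 294 to 391) and fibroblast (42.3 to 45.0 and 39.0 to 48.1) ranges overlap. The part of these other cells in the values below was not tested, and fewer nuclei of a type cannot be told apart from lower accessibility in each.

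Accessibility at the junction genes was then compared between the groups, to ask whether chromatin at genes of the synapse differs when H2A.Z is deleted in the fibre. No junction interval was called higher or lower. With edgeR's quasi-likelihood test and Benjamini-Hochberg adjustment over all intervals, 0 of 29 had an adjusted p under 0.05 (background 0%, 0 of 39768), and the smallest adjusted p among them was 0.972. Without adjustment 0 of 29 had a p under 0.05, where the background is 4.95%. DESeq2 gave 0 of 29 at either threshold, where its own background is 1.9% without adjustment and 0% with it. The log2 fold change was above 0 in 17 intervals and below 0 in 12 (58.6% above, background 52.5%), with a median of 0.055 against 0.012 for all intervals and a range from -0.42 to 0.52. The groups did not overlap in 2 intervals, both higher in the libraries labelled dKO (background 5.22%), and 0 were lower without overlap (background 5.63%, or 10.8% in either direction).

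The precision of these values bounds what could have been missed. The fold change had a 95% confidence interval inside a 2-fold change either way in 27 of the 29 intervals (background 91.4%) and inside 1.5-fold in 16 (background 49.6%). The exceptions to the 2-fold bound were Musk Peak_7965 and Chrna1 Peak_3600. In the 13 intervals at the genes' own TSSs all 13 stayed within 2-fold and 10 within 1.5-fold, against 9 and 3 of the 11 at no TSS. The shares of these classes over all intervals were not counted, so it was not tested whether the contrast is particular to the junction genes. Over all intervals, those at promoters are wider, with a median of 193 bp, against 87 bp for others inside genes and 93 bp between genes.

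**Figure D3:**
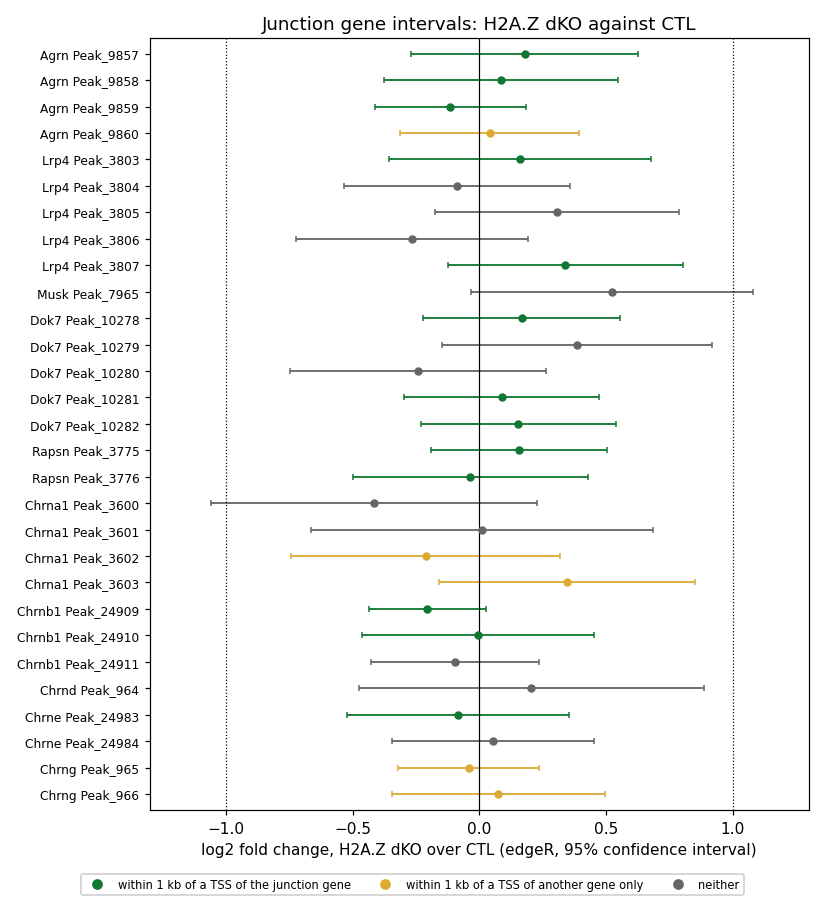
Log2 fold change of each junction gene interval, libraries labelled dKO over CTL, from edgeR with 95% confidence intervals (horizontal bars, n = 3 and 3), coloured by whether the interval lies within 1 kb of a TSS of the junction gene, of another gene only, or of neither. Each of the 29 bars includes 0, and those of Musk Peak_7965 and Chrna1 Peak_3600 pass the dotted lines at a 2-fold change.

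The authors' table marks each interval as listed for both groups or for 1 of them, and over all intervals this column moves with the direction of the values. The junction intervals divide into 10 listed for both groups, 15 listed only for H2A.Z dKO and 4 listed only for CTL (34.5%, 51.7% and 13.8%), where all intervals have 38.7%, 43.4% and 17.9%. Over all intervals listed for H2A.Z dKO only the median log2 fold change was 0.11 (69.8% above 0), and over the 15 junction intervals so listed it was 0.16, with 12 above 0. Those listed for both groups had medians of -0.023 (all, 43.7% above 0) and -0.089 (junction genes, 3 of 10 above 0). Those listed for CTL only had medians of -0.13 (all, 29.5% above 0) and -0.012 (junction genes, 2 of 4 above 0). The lists come from peak calls on the same libraries, so they are not independent of these values, and the sources used here differ on whether the calls were made on pooled replicates or kept where replicates shared them.

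Agrn, the gene of the nerve-derived signal agrin, which muscle transcribes too, lies on the minus strand at chr4:155539399-155571536 and had 4 intervals, each with its midpoint upstream of the 5′ end. Peak_9857 (chr4:155571432-155571814), which overlaps the first exon and the promoter, had 45.9, 58.0 and 47.9 CPM in CTL replicates 1, 2 and 3 and 82.8, 44.2 and 43.9 in the libraries labelled dKO, where CPM from here on are scaled by TMM. The second group thus held the highest value, in replicate 1, and both lowest. Its log2 fold change of 0.18 (SE 0.21, edgeR adjusted p = 0.987) went to -0.20 without replicate 1 of the libraries labelled dKO. Peak_9858, in the same promoter, overlaps Peak_9857 and so counts the ends of the shared stretch again. It had 28.9 CPM in that replicate, against 15.7 to 21.9 in the other 5 libraries. Its log2 fold change of 0.085 went to -0.28 without that replicate. Peak_9859, 612 bp upstream, had 43.0 to 48.3 CPM in CTL, against 35.7 to 49.1 in the libraries labelled dKO (log2 fold change -0.11, SE 0.14). Peak_9860, at AW011738, had 27.5 to 36.4 CPM in CTL, against 26.8 to 40.0 in the libraries labelled dKO (log2 fold change 0.041, SE 0.17), and the groups overlap at all 4. Over the 4 intervals of the gene the sums were 149 ± 14.5 CPM in CTL and 153 ± 41.8 in the libraries labelled dKO (SD, n = 3 each; exact permutation test, two-sided p = 0.9).

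Lrp4, the agrin receptor, lies on the plus strand at chr2:91297668-91354058 and had an interval at its 5′ end, 3 in intron 1 and 1 over exon 10. The promoter interval, Peak_3803 (chr2:91297582-91297696), had 13.6, 11.04 and 7.93 CPM in CTL, against 17.02, 9.31 and 10.6 in the libraries labelled dKO, a spread of more than 1.5-fold within each group. Its log2 fold change was 0.16 (SE 0.25). The intron 1 intervals Peak_3804, Peak_3805 and Peak_3806 lie beside each other and did not move together, with log2 fold changes of -0.088, 0.31 and -0.27 (SE 0.21, 0.23 and 0.22). Peak_3807 (chr2:91316734-91316878), over coding exon 10 and 330 bp from an internal TSS, is 1 of the 2 intervals whose groups did not overlap. It had 9.34, 6.71 and 10.5 CPM in CTL, against 11.8, 10.6 and 10.98 in the libraries labelled dKO, the nearest libraries being at 10.5 and 10.6, and a log2 fold change of 0.34 (SE 0.22, edgeR adjusted p = 0.972). The sum over the gene was 48.1 ± 5.68 CPM in CTL and 51.3 ± 3.71 in the libraries labelled dKO (SD, n = 3 each; exact permutation test, two-sided p = 0.5).

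Musk encodes the receptor tyrosine kinase that Lrp4 activates, and its only interval, Peak_7965 (chr4:58349260-58349423), lies in intron 7 of the gene (plus strand, chr4:58298834-58390290). The interval, whose sequence of 164 bases is given above, had 44, 32 and 17 counts in CTL, against 34, 46 and 62 in the libraries labelled dKO. Scaled, these were 7.21, 6.93 and 4.81 CPM in CTL, against 5.96, 9.96 and 12.2 CPM in the libraries labelled dKO. Replicates 2 and 3 of the latter lie above every CTL library, and replicate 1 lies among them. This gave the largest log2 fold change of the 29, 0.52 (SE 0.27, 95% confidence interval -0.03 to 1.08), and their smallest p, 0.063 before adjustment and 0.972 after it (edgeR). Without replicate 1 of the libraries labelled dKO the log2 fold change was 0.77, with an edgeR p of 0.0030 before adjustment and 0.446 after it, and without replicate 3 it was 0.27 (adjusted p = 0.930), so its size depended on single libraries. The authors list the interval for H2A.Z dKO only.

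Dok7, the adaptor that activates MuSK from inside the fibre, lies on the plus strand at chr5:35399462-35430488. Its promoter interval Peak_10278 (chr5:35399385-35399551) is the other interval whose groups did not overlap, with 14.1, 15.4 and 15.9 CPM in CTL, against 16.1, 17.5 and 17.1 in the libraries labelled dKO. The log2 fold change was small, 0.17 (SE 0.19, edgeR adjusted p = 0.985), and scaled by total counts alone, as RPKM, the ranges overlap (84.2 to 95.3 and 93.8 to 107). Peak_10279, in intron 2, had 5.19 to 9.83 CPM in CTL, against 8.04 to 13.0 in the libraries labelled dKO (log2 fold change 0.38, SE 0.26). In intron 4, Peak_10280 had a log2 fold change of -0.24 (SE 0.24) and the overlapping Peak_10281 and Peak_10282, about 0.7 kb upstream of an internal TSS, had 0.088 and 0.15 (SE 0.19 each). Thus 4 of the 5 intervals were above 0 (background 52.5%), but these include the overlapping pair, which shares most of its bases and is not independent. The confidence interval of each of the 5 included 0. The sum was 86.2 ± 12.6 CPM in CTL and 94.7 ± 14.1 in the libraries labelled dKO (SD, n = 3 each; exact permutation test, two-sided p = 0.5).

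Rapsn, which encodes the anchoring protein rapsyn, lies on the plus strand at chr2:90875777-90885886 and had both its intervals at the promoter. Peak_3775 (chr2:90875639-90875896), which spans the 5′ end, had 23.3, 22.7 and 24.1 CPM in CTL, against 23.5, 26.4 and 28.2 in the libraries labelled dKO, with replicate 1 of the latter within the CTL range (log2 fold change 0.16, SE 0.17). Peak_3776 lies inside it and had 7.54 to 8.87 CPM in CTL, against 7.19 to 8.66 in the libraries labelled dKO. Among the 29 intervals these also had the most E-boxes, 3 in the 200 bases around each midpoint. The windows overlap and hold the same E-boxes, and Peak_3776 has 0 inside its own edges. The sum was 31.7 ± 1.03 CPM in CTL and 34.2 ± 3.17 in the libraries labelled dKO (SD, n = 3 each; exact permutation test, two-sided p = 0.4).

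Chrnb1 encodes the beta subunit and had the most accessible interval of the 10 genes and the lowest unadjusted p of any that was lower. The gene lies on the minus strand at chr11:69597538-69609445, and Peak_24909 (chr11:69608771-69609153) overlaps exon 2 with its midpoint in intron 2, 483 bp past the 5′ end. It had 111, 103 and 115 CPM in CTL, against 82.3, 99.3 and 104 in the libraries labelled dKO, where replicate 1 lies lowest and replicate 3 just inside the CTL range. The log2 fold change was -0.20 (SE 0.11, 95% confidence interval -0.44 to 0.03), with an edgeR p of 0.079 before adjustment and 0.972 after it. It was -0.11 without replicate 1 of the libraries labelled dKO and -0.29 without replicate 3, the latter with an edgeR p of 0.035 before adjustment and 0.874 after it. Peak_24910, over exon 1, differed little (log2 fold change -0.0046, SE 0.22), and the intergenic Peak_24911, 1119 bp from a TSS of Fgf11, had -0.096 (SE 0.16).

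Summed over its 3 intervals, Chrnb1 was the only gene of the 10 whose groups did not overlap (background 10.6% of 13483 protein-coding genes summed by this rule, 6.55% in this direction and 4.05% in the other). The sums were 155, 145 and 161 CPM in CTL, against 130.4, 140 and 140.4 in the libraries labelled dKO, a difference of -16.8 CPM or -0.17 on the log2 scale. They include the intergenic Peak_24911, nearer to a TSS of Fgf11, and without it the groups overlap. In each of the 3 intervals alone the groups overlap too. For the sum over all 3, the exact permutation test gave a two-sided p = 0.1, the smallest that 3 libraries against 3 allow, with 10 genes compared. For each of the other 9 genes it was 0.3 or above. Over all 29 intervals the sum was 605 ± 9.94 CPM in CTL and 611 ± 19.7 in the libraries labelled dKO (SD, n = 3 each).

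Chrna1, the gene of the alpha subunit that binds acetylcholine, lies on the minus strand at chr2:73401272-73418395, with an interval in intron 7 and another in intron 4. Peak_3600 (chr2:73405238-73405258) and Peak_3601 (chr2:73410644-73410663), 21 and 20 bp wide, had only 8 to 20 and 9 to 17 counts per library. Peak_3600 had 20, 18 and 9 counts in CTL, against 15, 8 and 15 in the libraries labelled dKO, overlapping groups with the lowest log2 fold change of the 29, -0.42 (SE 0.31, 95% confidence interval -1.06 to 0.23, edgeR adjusted p = 0.972). For Peak_3601 it was 0.011 (SE 0.33). Upstream, at Gm13705, Peak_3602 had -0.21 (SE 0.26). Peak_3603 had 7.37, 7.57 and 8.50 CPM in CTL, against 6.84, 11.04 and 11.96 in the libraries labelled dKO, with replicate 1 below every CTL library and the other 2 above (log2 fold change 0.35, SE 0.24, edgeR adjusted p = 0.972). Without replicate 1 of the libraries labelled dKO it was 0.57, with an edgeR p of 0.017 before adjustment and 0.556 after it. The gene's sum, 19.3 ± 1.02 and 19.9 ± 3.86 CPM (SD, n = 3 each; exact permutation test, two-sided p = 0.9), goes from 0.041 to -0.20 on the log2 scale when the intervals at Gm13705 are left out.

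Chrnd, the delta subunit gene (plus strand, chr1:89087227-89096644), had only Peak_964 (chr1:89081576-89081594), 19 bp wide, 5.64 kb upstream and nearer to 1700027L20Rik. It had 12, 8 and 8 counts in CTL, against 11, 11 and 13 in the libraries labelled dKO. Groups of such small counts overlapped, and the log2 fold change of 0.21 carried an SE of 0.33.

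The genes of the adult and fetal subunits, epsilon and gamma, had no called interval at the 5′ end, and the groups overlapped at every interval near them. Chrne (minus strand, chr11:70428385-70432718) had Peak_24983 over exons 11 and 12, the 3′ end of the gene, and Peak_24984 (chr11:70435573-70435824) 2.98 kb upstream. Peak_24983 had 12.9, 13.9 and 14.4 CPM in CTL, against 10.0, 13.4 and 15.5 in the libraries labelled dKO (log2 fold change -0.083, SE 0.21). Peak_24984 had 22.9, 19.5 and 21.0 CPM in CTL, against 16.5, 25.3 and 24.5 in the libraries labelled dKO (log2 fold change 0.055, SE 0.19). At both, the libraries labelled dKO spread wider than CTL, with replicate 1 lowest. Chrng (plus strand, chr1:89102386-89108410) had only the intervals at Eif4e2, Peak_965 and Peak_966, with log2 fold changes of -0.042 and 0.076 (SE 0.13 and 0.20). The sums were 34.9 ± 1.35 and 35.1 ± 7.46 CPM for Chrne and 74.7 ± 9.83 and 74.1 ± 9.64 CPM for Chrng in CTL and the libraries labelled dKO (SD, n = 3 each; exact permutation test, two-sided p = 1 for each).

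The sequence upstream of the genes was compared with that of all promoters, taken as the 250 bases before the 5′ end of 22362 protein-coding genes. E-boxes of the form CAGCTG stood upstream of 5 of the 10 junction genes (Musk, Rapsn, Chrna1, Chrne and Chrng), where 11.8% of all promoters hold one. They are the capitals CAGCTG in the sequences above, except in Chrng, where both copies lie further upstream. Any E-box (CANNTG, read alike on both strands) was present in 8 of 10, against 63.6% of all, with Agrn and Lrp4 lacking one. The N-box, searched as CCGGAA on both strands, was present in 4 of 10 (Agrn, Lrp4, Chrnd and Chrne), against 13.9%. Of the 5 genes without an interval at the 5′ end, 4 held CAGCTG, and of the 5 with one, only Rapsn did. Over all protein-coding genes the shares hardly differed, 12.3% without an interval and 11.2% with one. These are matches of letters in a window and not tests of binding.

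Base composition divided the genes in part as the intervals did. GC content of the 250 bases was 84.0% in Agrn and 73.2% in Lrp4, 64.4% in Dok7, 60.0% in Chrnb1 and 57.6% in Rapsn, with a median of 64.4% for these 5, against 56.8% (50.8% to 59.2%) for the 5 genes without a promoter interval. The ratio of observed to expected CpG had medians of 0.578 and 0.186. Over all protein-coding genes the medians were 60.0% GC and a CpG ratio of 0.750 for promoters with an interval and 48.8% and 0.244 for those without. The division was not complete. Rapsn had a promoter interval at a CpG ratio of 0.145, below Musk (0.391), Chrnd (0.270) and Chrna1 (0.186) and above Chrng (0.0913) and Chrne (0.0496). Dok7, also with a promoter interval, had 0.390, about the ratio of Musk.

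**Figure D4:**
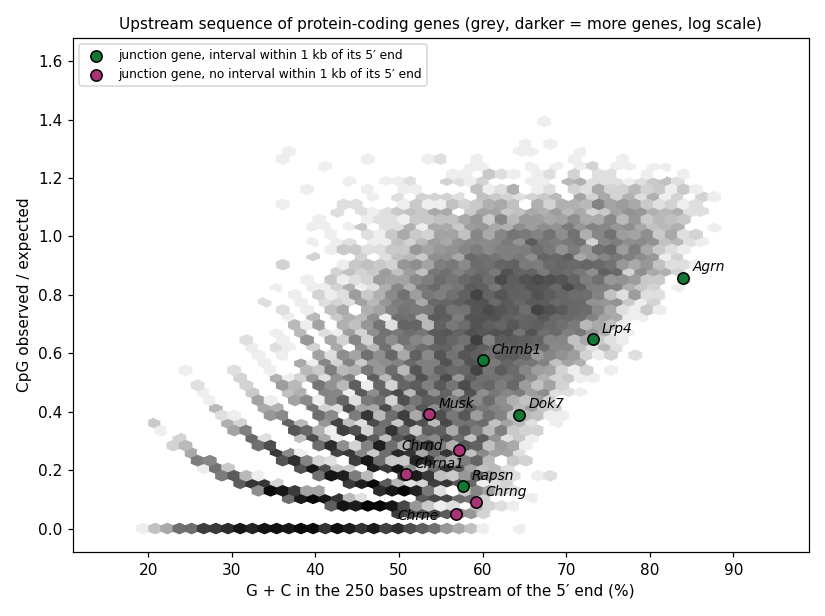
GC content (%) against the ratio of observed to expected CpG in the 250 bases upstream of the 5′ end, for all protein-coding genes (grey, darker for more genes on a log scale) and the 10 junction genes (green with, purple without an interval within 1 kb of the 5′ end). Agrn and Lrp4 lie at the GC-rich edge, and the purple genes lie at a CpG ratio of 0.391 or lower together with Rapsn and Dok7.

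Around the midpoints of the accessible intervals, the letters were close to or below the share of all intervals. The window used has a fixed width, so it reaches past the edges of the narrower intervals. In the 200 bases around the midpoint, 14 of the 29 held an E-box (48.3%, 57.2% of all intervals), 5 held CAGCTG (17.2%, 17.6% of all) and 3 the N-box (10.3%, 12.6% of all). The 5 with CAGCTG in this window were both Rapsn intervals, Dok7 Peak_10279 and Peak_10280, and Chrne Peak_24984. Inside their own edges, Rapsn Peak_3776 and the Dok7 intervals Peak_10279 and Peak_10280 hold 0 copies of CAGCTG.

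Other genes of the junction were taken from a list of 34, which covers the synaptic matrix and its esterase (Ache, Colq and laminins), neuregulin signalling, the dystroglycan complex and factors downstream of MuSK. Of these, 32 had an interval, 120 in all, and Nrg1 and Erbb4, a neuregulin and its receptor, had none. At an adjusted p under 0.05 (edgeR) 0 of 120 passed. At an unadjusted p under 0.05 there were 4 higher (background 2.64%) and 2 lower (background 2.31%), together 5% where the background is 4.95%. DESeq2 gave 2 of 120, where its own background is 1.9%. The median log2 fold change was 0.025, with 67 above and 53 below 0. At the genes' own TSSs, 0 of 52 intervals had an unadjusted p under 0.05 (edgeR).

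The 2 intervals of the list with the smallest p in each direction were 33 to 52 bp wide and had 9 to 34 counts per library. Apc Peak_36848, 47 bp wide in the locus of a scaffold protein that binds microtubules, had 11, 11 and 9 counts in CTL, against 22, 29 and 17 in the libraries labelled dKO (log2 fold change 1.01, SE 0.32, edgeR adjusted p = 0.972). Scn4a Peak_26328, assigned to the gene of the muscle sodium channel, had 23, 12 and 18 counts in CTL, against 34, 26 and 28 in the libraries labelled dKO (log2 fold change 0.61, SE 0.27). In the other direction, Abl1 Peak_3048 had 29, 27 and 23 counts in CTL, against 20, 17 and 13 in the libraries labelled dKO (log2 fold change -0.78, SE 0.27). Gabpa Peak_34263, assigned to the gene of the Ets factor that binds the N-box, had 23, 23 and 17 counts in CTL, against 10, 12 and 16 in the libraries labelled dKO (log2 fold change -0.84, SE 0.30). It does not lie at the Gabpa promoter, whose intervals Peak_34264 and Peak_34265 had log2 fold changes of 0.0020 and 0.24 (SE 0.11 and 0.18). The other 2 of the 6, named after their values were seen, were wider. Lama2 Peak_21912, 361 bp wide at the gene of a laminin chain of the muscle basement membrane, had 141, 144 and 106 counts in CTL, against 246, 158 and 158 in the libraries labelled dKO (log2 fold change 0.38, SE 0.17). Itga7 Peak_23632, 107 bp wide at the gene of a laminin-binding integrin, had 56, 34 and 34 counts in CTL, against 60, 63 and 61 in the libraries labelled dKO (log2 fold change 0.46, SE 0.22). The adjusted p of each of the 6 was 0.972 (edgeR), and none of the 6 lies within 1 kb of a TSS of its gene. The highest level belonged to the promoter of Etv5, another Ets factor, at 307 RPKM (Peak_33564), with 174, 177 and 181 CPM in CTL, against 141, 176 and 168 in the libraries labelled dKO (log2 fold change -0.13, SE 0.10, edgeR adjusted p = 0.972).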

How the data were processed

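The authors trimmed reads with Trimmomatic, aligned pairs to mm9 with Bowtie, removed duplicates with Picard, moved fragment ends to the centre of Tn5 binding and ran MACS2 for peaks; tool versions are not given in the sources used here. They deposited raw counts, the number of fragment ends in each interval for each library. By the methods the ends were shifted and extended before they were counted, so an interval may hold ends from just beyond its edges. Their own fold changes and p-values were not used. The header lacks the name of 1 column, and 0 columns of samples were left unused. Deposited starts were read as counted from 0 and are printed from 1.

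All 39768 intervals were fitted with edgeR 4.0.16 (TMM factors 0.971 to 1.02, robust quasi-likelihood, biological coefficient of variation 0.126, no replicate block; R 4.3.3), Benjamini-Hochberg adjustment and a threshold of 0.05. Alternatives were DESeq2 1.42.0, limma 3.58.1 voom, other scalings, a count filter, a replicate block, other rules for membership and each library left out. Summed CPM were compared by exact permutation over 10 splits. Library totals were 3520008 to 6117245 counts, and errors cover the spread between 3 libraries, which may be technical. Named are all intervals of the 10 genes, neighbours with a TSS within 1 kb and, of the related list, the 2 smallest p in each direction and the highest RPKM. Members, lists and markers were chosen with earlier results of these data known. A further marker list is not reported here.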

Additional observations from a re-analysis of the deposited data

How the results depend on the processing

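No junction interval had an adjusted p under 0.05 under any alternative; the lowest was 0.446. The number at an unadjusted p under 0.05 was 0 with every library and 0 to 2 with single libraries left out: Musk Peak_7965 and Chrna1 Peak_3603 without replicate 1 of the libraries labelled dKO, and Chrnb1 Peak_24909 without their replicate 3. Median log2 fold changes of the junction intervals ran from -0.00098, without replicate 2 of the libraries labelled dKO, to 0.12, in gene bodies only. For the related list, the number was 2 with DESeq2 (background 1.9%), 0 at own promoters and 3 to 8 with single libraries left out, 3 without CTL replicate 1. With single libraries left out, the share of all intervals at this threshold was not counted. The numbers from those fits thus stand without a background, for the junction intervals and for the related list.

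The replicate block moved the number of all intervals at an unadjusted p under 0.05 from 1970 to 1756, and same-numbered libraries had correlations of -0.121, -0.078 and -0.060 of their deviations, so the numbers were not taken as pairs. It turned 1 of the 29 log2 fold changes, that of Chrnb1 Peak_24910, from -0.0046 to 0.0022; voom gave 0.0055. Of the sums, Chrna1 went to -0.20 without other genes' promoters.

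With single libraries left out, 16 of 29 intervals kept their sign and 13 did not, 8 of these without replicate 1 of the libraries labelled dKO; the cause was not tested. The ranges of the 13 were -0.20 to 0.33 (Agrn Peak_9857), -0.28 to 0.23 (Peak_9858), -0.11 to 0.17 (Peak_9860), -0.16 to 0.37 (Lrp4 Peak_3803), -0.15 to 0.0081 (Peak_3804), -0.066 to 0.29 (Dok7 Peak_10281), -0.12 to 0.055 (Rapsn Peak_3776), -0.20 to 0.18 (Chrna1 Peak_3601), -0.15 to 0.075 (Chrnb1 Peak_24910), -0.25 to 0.084 (Chrne Peak_24983), -0.052 to 0.23 (Peak_24984), -0.10 to 0.054 (Chrng Peak_965) and -0.15 to 0.19 (Peak_966). Of the 16, Dok7 Peak_10278 moved by 1.5 times or less (0.11 to 0.20) and 15 by more: -0.23 to -0.00098 (Agrn Peak_9859), 0.19 to 0.45 (Lrp4 Peak_3805), -0.43 to -0.15 (Peak_3806), 0.18 to 0.46 (Peak_3807), 0.27 to 0.77 (Musk Peak_7965), 0.15 to 0.58 (Dok7 Peak_10279), -0.47 to -0.067 (Peak_10280), 0.0029 to 0.33 (Peak_10282), 0.082 to 0.23 (Rapsn Peak_3775), -0.57 to -0.24 (Chrna1 Peak_3600), -0.34 to -0.067 (Peak_3602), 0.17 to 0.57 (Peak_3603), -0.29 to -0.11 (Chrnb1 Peak_24909), -0.25 to -0.0072 (Peak_24911) and 0.11 to 0.33 (Chrnd Peak_964). Sums per gene ranged from -0.20 to 0.18 (Agrn), -0.052 to 0.19 (Chrna1), -0.096 to 0.18 (Chrne), -0.12 to 0.082 (Chrng) and, over all 29 intervals, -0.014 to 0.029, with -0.014 without the same replicate. At Musk, Chrna1 and Chrnd 0 of the intervals had a confidence interval inside a 1.5-fold change.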
